A study of Homo sapiens with 12 samples.

Results

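The Wnt and β-catenin pathway was described here through 55 genes picked by symbol for their place in the pathway: ligands, the proteins that secrete them, receptors and co-receptors, antagonists, the destruction complex, β-catenin with its nuclear partners, TCF/LEF factors and Groucho co-repressors. Of these, 46 were listed among the 13951 genes with values in the deposited RNA-seq tables. The other 9 (WNT4, WNT5B, WNT10A, WNT11, WNT16, ROR2, NKD1, DKK3 and SFRP1) were not analysed here. The symbols were picked for their role, but earlier results of the same tables were known when the list was drawn up, so the choice was not blind. The 46 listed members lie on 17 chromosomes.

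Wnt proteins are lipid-modified ligands that bind a Frizzled receptor together with LRP5 or LRP6. Without a ligand, a complex of APC, Axin, GSK3 and casein kinase 1 marks β-catenin for destruction; with one, Dishevelled recruits that complex to the membrane, β-catenin accumulates, enters the nucleus and displaces Groucho proteins from TCF/LEF factors at target genes. The pathway carries its own brakes, since AXIN2, RNF43, ZNRF3, LEF1 and DKK1 are among its well known targets, and in the prostate it acts in budding of the developing gland and can be active in advanced, castration-resistant carcinoma.

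RNA was sequenced from CWR22Rv1, an established human prostate carcinoma line derived from a xenograft that relapsed after castration, in 4 groups of 3 libraries. Control cells expressed exogenous Cas9 with no guide RNA. LV-MEIS1 cells carried a lentiviral MEIS1 transgene, and whether they also carry Cas9 is not given in the sources used here. HOXB13ko cells had received Cas9 and a guide against the start of the HOXB13 coding sequence, and 6 clonal lines were recombined into 1 pool. HOXB13ko-LV-MEIS1 cells were that pool infected with the same MEIS1 virus. All groups were kept under puromycin and harvested 48 h after seeding. Each genotype is 1 derived line or pool, so the 3 libraries of a group measure the spread between its cultures, and genotype cannot be told apart from the history of the line. The comparisons ask what MEIS1 does to expression, and whether that depends on HOXB13, a homeodomain factor of the prostate with which MEIS1 can pair.

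Values were in CPM, the deposited unit, in which the reads assigned to a gene are scaled to a common library total. The library totals were not given in the tables, but the spacing of low values corresponded to about 17200000 to 28600000 reads, at which 3 reads equal 0.105 to 0.175 CPM. Libraries of a group correlated at 0.99 to 0.995 across genes, and the highest correlation between groups was 0.994, so no library stood apart. MEIS1 averaged 4.25 ± 0.20 CPM in Control, 47.4 ± 2.0 in LV-MEIS1, 3.56 ± 0.12 in HOXB13ko and 29.7 ± 0.36 in HOXB13ko-LV-MEIS1 (SD, n = 3 in each), so the transgene was present in both labelled groups, at a lower level in the second. HOXB13 mRNA went against its label: its means were 196 ± 17.1, 151 ± 0.77, 327 ± 20.1 and 354 ± 25.1 CPM in the same order (SD, n = 3 in each), highest in the libraries labelled as knockout. These values measure mRNA, and whether HOXB13 protein was lost cannot be read from them. The study reports that the knockout was verified by western blot for HOXB13 protein, in the edited cells and in each clonal line. The luminal prostate identity of the line was visible, with 11 of 11 luminal markers listed and a summed level of 3117 to 4351 CPM over all libraries; LV-MEIS1 held the 3 lowest sums (3117 to 3143). None of 4 basal and none of 4 endothelial markers was listed. COL1A1 and PDGFRB were the only 2 of 7 fibroblast markers listed, and their summed level was 30.2 to 34.9 CPM in LV-MEIS1 against 14.6 to 20.8 CPM in the other groups, set by COL1A1, while COL1A2, COL3A1, PDGFRA, FAP and THY1 were absent from the list. PDGFRB went the other way, with means of 1.41 CPM in Control and 0.266 CPM in LV-MEIS1 (eBayes adjusted p = 0.000217). SYP and ENO2 were the 2 of 6 neuroendocrine markers listed. SYP averaged 16.2 CPM in Control, 1.74 in LV-MEIS1, 3.93 in HOXB13ko and 4.0 in HOXB13ko-LV-MEIS1, lower than Control in LV-MEIS1 and in HOXB13ko (treat adjusted p = 2.38e-08 and 4.48e-05), while the group means of ENO2 lay between 163 and 187 CPM. What part these markers have in the pathway values was not tested.

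Because CPM does not account for transcript length, levels of different genes were compared only as CPM per kb of the canonical transcript. On that scale CTNNB1, which encodes β-catenin itself, had the highest mean of the 46 members in Control, at 79.7 CPM per kb, followed by the casein kinase CSNK1A1 at 61.3 and the kinase GSK3A at 47.4. The lowest levels belonged to LGR5, a stem cell receptor for R-spondins, at 0.205 CPM per kb, and ROR1, a receptor of the β-catenin independent branch, at 0.139. The order placed the cytoplasmic machinery at the top and most ligands and several receptors at the bottom, over a range of nearly 3 orders of magnitude. In LV-MEIS1, FZD8 had a level visibly apart from that of the other 3 groups, and FZD4 split the groups by the knockout label.

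**Figure D1:**
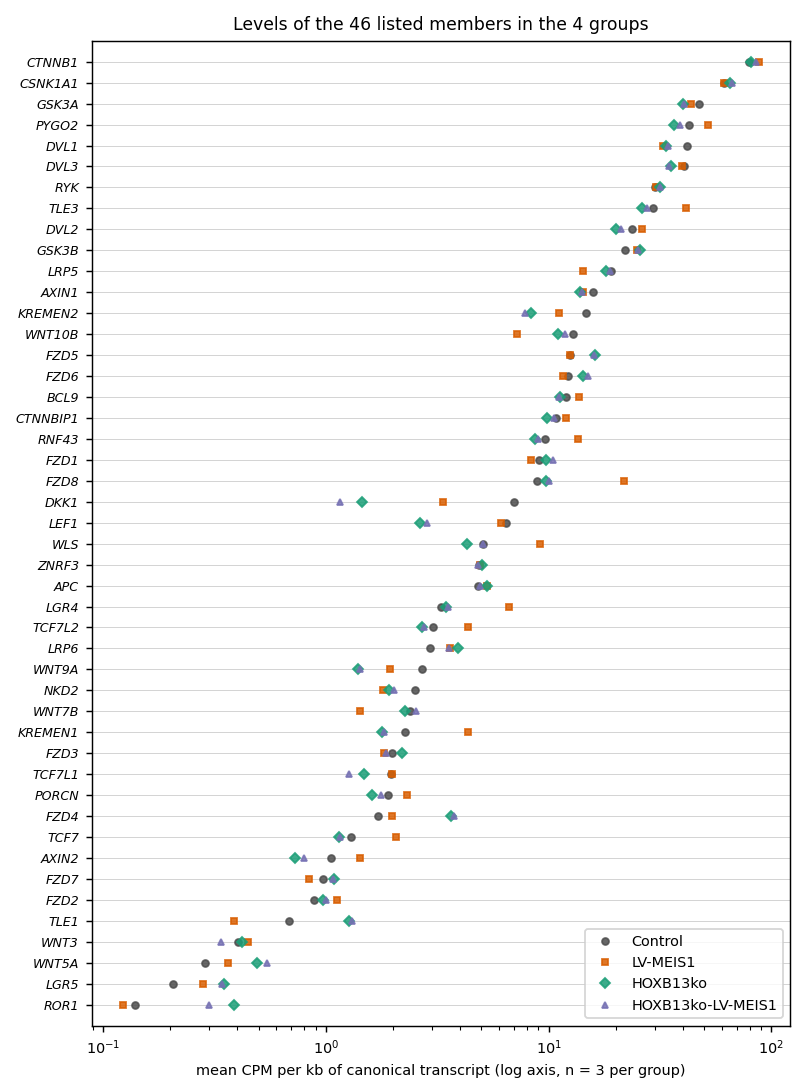
Mean CPM per kb of canonical transcript (log axis) for the 46 listed members in the 4 groups, one symbol per group (n = 3), ordered by the Control level. CTNNB1 is at the top (79.7 in Control) and ROR1 at the bottom (0.139); the LV-MEIS1 symbol stands to the right for FZD8, WLS, LGR4 and KREMEN1 and to the left for WNT10B and WNT7B.

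Differences were taken as log2 fold changes of CPM + 0.5 with a standard error (SE), and 2 tests of limma were applied to all 13951 genes with Benjamini-Hochberg adjustment. The treat test asks whether a change is larger than 1.5-fold, and a gene is named called below when its treat adjusted p was under 0.05. The eBayes test asks whether there is any change, and the verbs rose and fell are used for members that passed it at the same threshold. The pseudocount of 0.5 makes the fold change of a low gene smaller than the ratio of its CPM.

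In LV-MEIS1 against Control, 4 members were called. The receptor FZD8, the R-spondin receptor LGR4 and the DKK co-receptor KREMEN1 rose, and the secreted antagonist DKK1 fell. The 3 called higher were 3 of 46, where 1.75% of all genes were called higher, and the 1 called lower stood beside 2.24% of all genes. By eBayes 15 members rose, beside 23.2% of all genes, and 9 fell, beside 21.3%. The 46 members had a median log2 fold change of 0.06 (range −1.0 to 1.29), and all genes had one of 0.01. Since the samples are bulk RNA, fewer cells with a transcript and less transcript per cell cannot be told apart here or below.

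With the knockout label and no MEIS1, 3 members were called: FZD4 rose, and DKK1 and the transcription factor LEF1 fell. The background was 0.652% of all genes called higher and 0.760% called lower, against 1 and 2 of the 46 members. By eBayes 8 members rose (16.5% of all genes did) and 15 fell (16.4% of all genes did), and the median log2 fold change of the members was −0.08 against −0.00 for all genes. The eBayes count rested in part on single libraries: the 23 members became 12 without Control 2, 13 without HOXB13ko 3 and between 17 and 25 without any other library.

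When MEIS1 was added to the libraries labelled HOXB13ko, none of the 46 members was called by treat and none passed eBayes, and at an unadjusted p under 0.05 the counts were 0 by treat and 2 by eBayes. Few genes of any kind passed there, with 0.00717% called higher and 0% called lower by treat, and 0.0215% higher and 0.0287% lower by eBayes. The estimates of the members ran from −0.30 to 0.23. For 44 of the 46, the 95% interval of the log2 fold change lay inside a 1.5-fold change in either direction, and the widest bounds over all members were −0.65 and 0.52.

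The same pair of MEIS1 groups compared with each other, HOXB13ko-LV-MEIS1 against LV-MEIS1, gave the most calls. FZD4 and the co-repressor TLE1 were higher in HOXB13ko-LV-MEIS1 (2 of 46, beside 3.29% of all genes), and FZD8, DKK1, KREMEN1 and LEF1 were lower (4 of 46, beside 3.42%). By eBayes 10 members were higher and 18 lower, where 24.0% and 26.1% of all genes were. The median log2 fold change was −0.10 for the members and −0.02 for all genes, and this comparison shares its LV-MEIS1 libraries with the first.

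The difference between the MEIS1 effects, that in LV-MEIS1 against Control minus that in HOXB13ko-LV-MEIS1 against HOXB13ko, was tested as a single term. FZD8 was the 1 member called, with a positive difference, beside 1.31% of all genes called in that direction and 1.62% in the other, in which no member was called. By eBayes 9 members had a positive and 8 a negative difference, beside 18.0% and 16.2% of all genes. Those 17 became 11 without HOXB13ko 2, and lay between 12 and 17 without any other library. The MEIS1 transcript itself was lower in HOXB13ko-LV-MEIS1 than in LV-MEIS1. HOXB13ko-LV-MEIS1 was made from the HOXB13ko pool, whereas it is not given here whether LV-MEIS1 was made from the Control line. The difference therefore holds the HOXB13 label, the amount of MEIS1 mRNA and the derivation of the lines, which cannot be told apart.

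**Figure D2:**
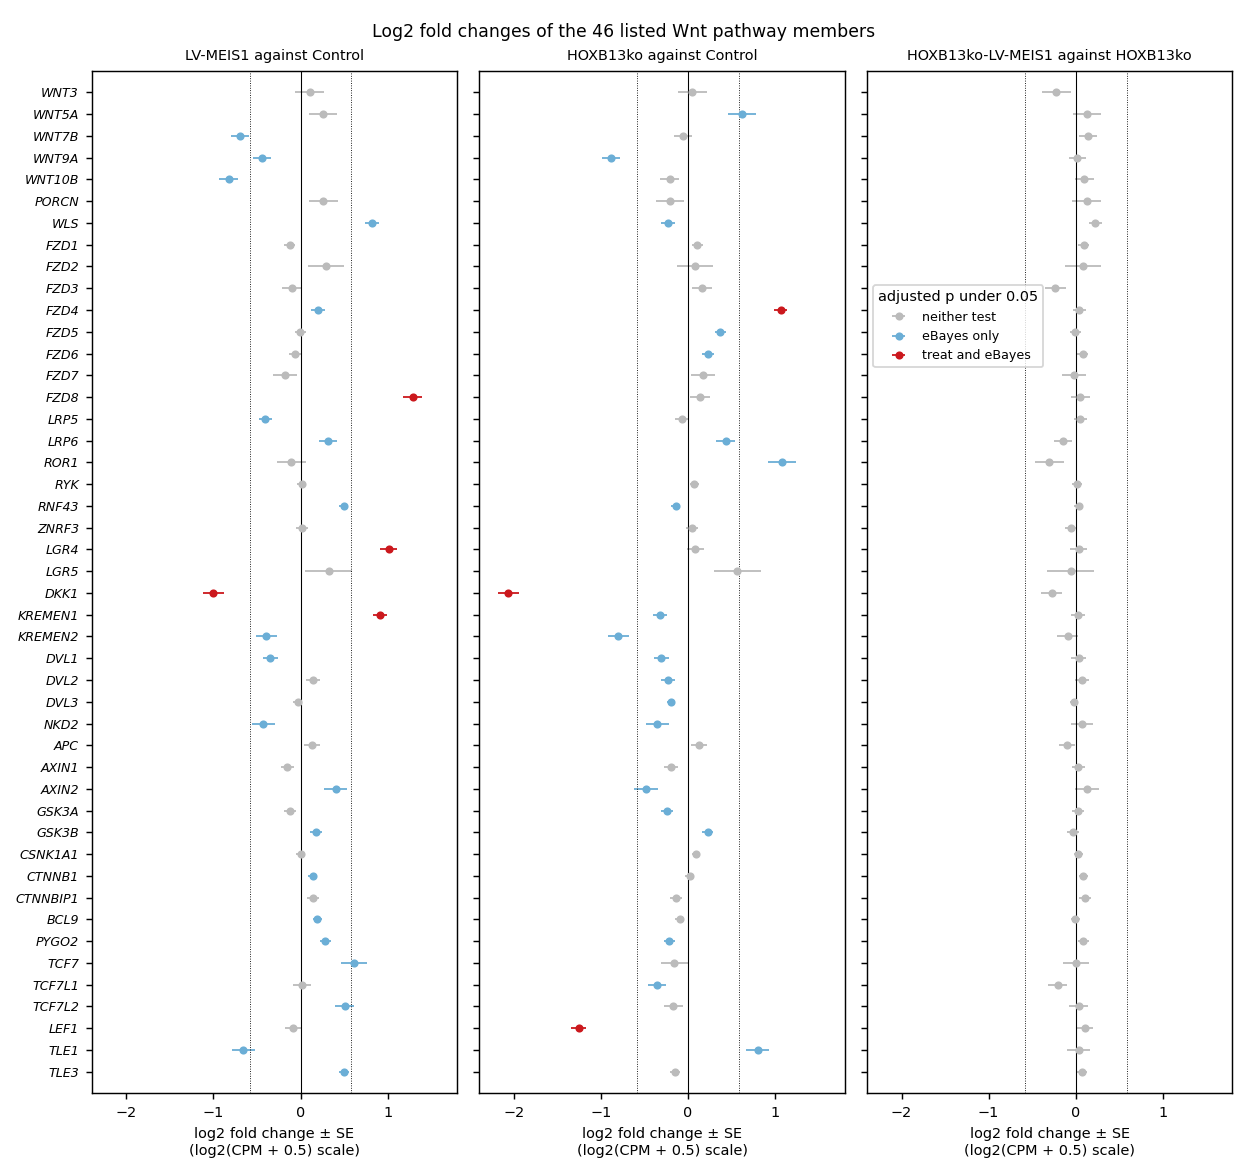
Log2 fold change ± SE (log2(CPM + 0.5) scale) of the 46 listed members, ordered by role from ligands to co-repressors, in LV-MEIS1 against Control, HOXB13ko against Control and HOXB13ko-LV-MEIS1 against HOXB13ko. Red points passed treat and eBayes (4, 3 and 0 members), blue points eBayes alone, grey points neither; dotted lines mark 1.5-fold, and the right panel holds no red or blue point.

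Counting libraries rather than testing, the 3 LV-MEIS1 libraries all lay above the 9 others for 11 of the 46 members, while 15.1% of all genes showed this. These were WLS, FZD8, RNF43, LGR4, KREMEN1, AXIN2, BCL9, PYGO2, TCF7, TCF7L2 and TLE3. They lay below the 9 others for WNT7B, WNT10B, LRP5 and TLE1, beside 14.0% of all genes. All 6 libraries with the knockout label lay above the 6 without it for FZD4, FZD5, FZD6, ROR1 and TLE1, beside 8.82% of all genes. Those 6 lay below for 12 members, beside 8.21%: WNT9A, RNF43, DKK1, KREMEN1, KREMEN2, DVL2, DVL3, AXIN2, BCL9, PYGO2, TCF7L1 and LEF1.

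Of the ligands, 5 genes were listed, and none was called. WNT10B, a ligand of the β-catenin branch, measured 25.2, 32.6 and 29.0 CPM in Control, 18.8, 15.4 and 14.2 in LV-MEIS1, 24.7, 26.2 and 23.5 in HOXB13ko, and 27.1, 24.4 and 28.4 in HOXB13ko-LV-MEIS1. The 3 LV-MEIS1 values were the lowest of all 12 libraries. WNT10B fell 1.77-fold in LV-MEIS1 against Control (log2 fold change −0.82 ± 0.11 SE, eBayes adjusted p = 2.88e-05, treat adjusted p = 0.389), and the difference between the MEIS1 effects was −0.92 ± 0.15 (eBayes adjusted p = 0.00044). WNT7B, another ligand of epithelia, had 8.69, 10.6 and 8.85 CPM in Control, 5.33, 5.26 and 6.23 in LV-MEIS1, 8.42, 9.52 and 9.04 in HOXB13ko and 10.7, 9.41 and 9.84 in HOXB13ko-LV-MEIS1. Again the LV-MEIS1 libraries were below the rest, with a log2 fold change of −0.69 ± 0.11 against Control (eBayes adjusted p = 0.000111, treat adjusted p = 1).

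WNT9A was below Control in each of the other groups. Its values were 10.1, 11.7 and 10.6 CPM in Control, 7.54, 7.89 and 7.94 in LV-MEIS1, 6.15, 5.42 and 5.25 in HOXB13ko, and 5.67, 5.23 and 6.19 in HOXB13ko-LV-MEIS1. The 6 libraries with the knockout label were lowest, LV-MEIS1 was between them and Control, and no values of those 3 sets overlapped. The fall was −0.89 ± 0.10 on the log2 scale in HOXB13ko against Control (eBayes adjusted p = 1.9e-05, treat adjusted p = 0.258) and −0.44 ± 0.10 in LV-MEIS1 against Control (eBayes adjusted p = 0.00266). Under the knockout label the MEIS1 estimate for WNT9A was 0.02. The difference between the MEIS1 effects was −0.46 (eBayes adjusted p = 0.0224), lost without Control 2, HOXB13ko 2 or 3, or HOXB13ko-LV-MEIS1 3 (0.0512 to 0.0603). WNT5A, best known for signalling without β-catenin, had 1.92, 1.56 and 1.58 CPM in Control, 1.94, 2.58 and 1.85 in LV-MEIS1, 2.38, 3.14 and 3.07 in HOXB13ko, and 3.8, 2.77 and 2.99 in HOXB13ko-LV-MEIS1. It rose with the knockout label (0.62 ± 0.16, eBayes adjusted p = 0.0107), though LV-MEIS1 2 reached into the range of that label. WNT3 was near 1 CPM, with group means from 1.12 to 1.48 CPM, and passed no test.

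Of the 2 genes needed to release a ligand, WLS, the carrier that takes Wnt to the cell surface, had 13.4, 14.1 and 13.9 CPM in Control, 24.6, 24.7 and 24.9 in LV-MEIS1, 13.0, 11.3 and 10.8 in HOXB13ko, and 13.4, 14.3 and 13.5 in HOXB13ko-LV-MEIS1. LV-MEIS1 stood alone and high, with little spread. WLS rose 1.77-fold against Control (0.82 ± 0.08, eBayes adjusted p = 1.2e-06) without reaching a treat call (adjusted p = 0.101), and the difference between the MEIS1 effects was 0.59 ± 0.11 (eBayes adjusted p = 0.00108). Its fall in HOXB13ko against Control (−0.23 ± 0.08, eBayes adjusted p = 0.0331) was lost without Control 2 or 3 or HOXB13ko 2 or 3 (0.0789 to 0.143). In LV-MEIS1 the carrier rose while the ligands WNT7B, WNT9A and WNT10B fell. PORCN, which attaches the lipid to Wnt, had group means from 3.02 to 4.32 CPM and passed no test.

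All 8 Frizzled genes of the list were measured, and 2 were called. FZD8 measured 33.0, 41.5 and 33.3 CPM in Control, 92.0, 77.7 and 94.8 in LV-MEIS1, 45.6, 38.8 and 34.2 in HOXB13ko, and 39.4, 39.0 and 44.2 in HOXB13ko-LV-MEIS1. The lowest LV-MEIS1 library was well above the highest of the 9 others, which overlapped each other. The rise against Control was 2.44-fold (1.29 ± 0.11, treat adjusted p = 0.000406), the change within the knockout label was 0.05 ± 0.11 (treat and eBayes adjusted p = 1 and 0.857), and the difference between them was 1.23 ± 0.16 (treat adjusted p = 0.0199). That last call was lost without any 1 of 6 libraries (Control 1 or 3, LV-MEIS1 1 or 3, HOXB13ko-LV-MEIS1 1 or 2), with adjusted p from 0.0524 to 0.0663, while the difference itself stayed between 1.13 and 1.34.

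FZD4 split the libraries by the knockout label, with 13.1, 12.4 and 12.5 CPM in Control, 16.1, 13.6 and 14.4 in LV-MEIS1, 26.7, 27.0 and 27.3 in HOXB13ko, and 29.9, 27.9 and 25.9 in HOXB13ko-LV-MEIS1. The 6 libraries with the knockout label were all above the 6 without it. FZD4 rose 2.09-fold in HOXB13ko against Control (1.06 ± 0.08, treat adjusted p = 0.00161), and it was 1.87-fold higher in HOXB13ko-LV-MEIS1 than in LV-MEIS1 (0.90 ± 0.08, treat adjusted p = 0.00917), a call lost without LV-MEIS1 2 (0.0558) or HOXB13ko-LV-MEIS1 1 (0.0594). The exons of FZD4 overlap those of PRSS23, a serine protease gene on the opposite strand. The library kit keeps strand but the authors' counting did not use it, so reads in the overlap cannot be assigned. PRSS23 averaged 15.2 CPM in Control, 98.7 in LV-MEIS1, 12.9 in HOXB13ko and 13.0 in HOXB13ko-LV-MEIS1. Its share in the FZD4 values was not tested. Beside that, the small rise of FZD4 in LV-MEIS1 (0.20 ± 0.08, eBayes adjusted p = 0.0473) was lost in 8 of the 12 fits that left a library out (0.0584 to 0.193). The libraries behind those 8 fits were Control 2 and 3, LV-MEIS1 1 and 3, the 3 HOXB13ko libraries and HOXB13ko-LV-MEIS1 2.

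Among the other Frizzled genes, FZD5 and FZD6 also rose with the knockout label, by 0.37 ± 0.06 (eBayes adjusted p = 0.000492) and 0.23 ± 0.07 (eBayes adjusted p = 0.016). FZD6 lost this without Control 2, Control 3 or HOXB13ko 3 (0.0644 to 0.0693). FZD1, FZD2, FZD3 and FZD7 passed neither test in LV-MEIS1 against Control or HOXB13ko against Control. FZD5 was the most abundant Frizzled in Control per length, followed by FZD6, FZD1 and FZD8, whereas in LV-MEIS1 FZD8 took the first place.

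**Figure D3:**
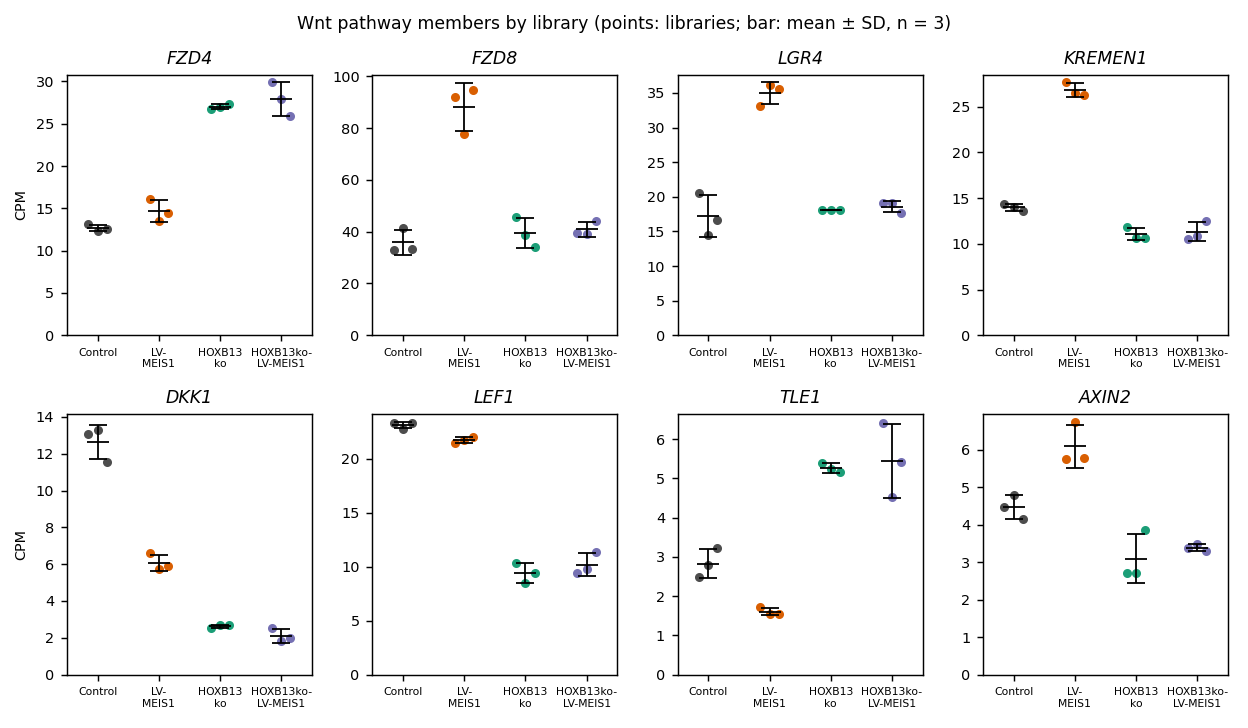
CPM in each of the 12 libraries (linear axis from 0) for the 7 members called in any comparison (FZD4, FZD8, LGR4, KREMEN1, DKK1, LEF1 and TLE1) and for AXIN2; points are libraries, bars the mean ± SD (n = 3). FZD8, LGR4 and KREMEN1 are high in LV-MEIS1 alone, FZD4 and LEF1 divide by the knockout label, and DKK1 steps down from Control to LV-MEIS1 to the labelled knockout.

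The co-receptors LRP5 and LRP6, which pair with Frizzled, moved in opposite directions. LRP5 fell in LV-MEIS1 against Control by 0.41 on the log2 scale (SE 0.07, eBayes adjusted p = 0.000509), from a mean of 98.8 to one of 74.3 CPM. LRP6 rose from 30.0 to 37.2 CPM (0.31 ± 0.11, eBayes adjusted p = 0.0268), a result lost without Control 2, Control 3, LV-MEIS1 2 or LV-MEIS1 3 (0.0504 to 0.123). Neither change exceeded 1.5-fold. LRP6 also rose in HOXB13ko against Control, by 0.43 ± 0.11 (eBayes adjusted p = 0.00737).

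ROR1 is a receptor tyrosine kinase-like partner of WNT5A. Its promoter is printed here because it is 1 of 6 member promoters with a match to the MEIS core TGACAG and because the gene split by the knockout label. Both this sequence and that of DKK1 below are the 250 bases before the annotated start, from RefSeq on build GRCh38.p14, plus strand, with the matched letters in capitals.

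ROR1 promoter, chr1:63773767-63774016: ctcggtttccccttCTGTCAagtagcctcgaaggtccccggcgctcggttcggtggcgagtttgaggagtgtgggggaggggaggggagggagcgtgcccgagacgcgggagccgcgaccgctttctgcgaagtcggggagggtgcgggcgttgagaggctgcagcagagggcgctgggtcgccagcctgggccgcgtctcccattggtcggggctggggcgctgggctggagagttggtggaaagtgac

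The capitals mark TGACAG read on the minus strand, 236 bases before the start. ROR1 had 0.756, 0.951 and 0.733 CPM in Control, 0.830, 0.562 and 0.777 in LV-MEIS1, 2.27, 2.09 and 2.42 in HOXB13ko, and 1.52, 1.73 and 1.99 in HOXB13ko-LV-MEIS1. Every library with the knockout label was above every library without it, at low levels throughout. The rise in HOXB13ko against Control was 1.07 ± 0.16 on the log2 scale (eBayes adjusted p = 0.000232, treat adjusted p = 0.251). RYK, the other listed receptor outside the Frizzled family, had group means from 91.5 to 97.0 CPM and passed no test.

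The turnover of Frizzled and LRP at the surface is set by the ubiquitin ligases RNF43 and ZNRF3, which R-spondins remove by binding LGR4 or LGR5. LGR4 measured 20.6, 14.5 and 16.6 CPM in Control, 33.1, 36.1 and 35.6 in LV-MEIS1, 18.1 in each HOXB13ko library, and 19.1, 19.1 and 17.6 in HOXB13ko-LV-MEIS1. LV-MEIS1 was again alone on the high side. LGR4 rose 2.02-fold against Control (1.01 ± 0.10, treat adjusted p = 0.0105), which was no longer a call without Control 2, its lowest library (0.0513). It was 1.86-fold lower in HOXB13ko-LV-MEIS1 than in LV-MEIS1 (treat adjusted p = 0.0526, eBayes adjusted p = 3.44e-06), and this passed treat without Control 1 (0.00677) or Control 2 (0.0151). The difference between the MEIS1 effects was 0.98 ± 0.14 (eBayes adjusted p = 0.000127, treat adjusted p = 0.173), and without Control 1 it passed treat as well (0.00712).

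RNF43, itself a target of β-catenin, moved in the same direction by less. It had 43.6, 43.9 and 42.9 CPM in Control, 59.5, 62.3 and 62.9 in LV-MEIS1, 39.8, 40.6 and 37.6 in HOXB13ko, and 39.5, 40.7 and 41.0 in HOXB13ko-LV-MEIS1. It rose by 0.50 ± 0.05 in LV-MEIS1 against Control (eBayes adjusted p = 3.26e-06), and the groups with the knockout label lay under Control. The fall in HOXB13ko against Control was 0.14 on the log2 scale (eBayes adjusted p = 0.0473) and was lost when any 1 of the 12 libraries was left out (0.052 to 0.187). ZNRF3, the paralog of RNF43, had group means from 33.2 to 34.6 CPM and passed no test, and LGR5 stayed between 0.941 and 1.6 CPM in group means with values that overlapped.

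DKK1 is a secreted antagonist that binds LRP5 and LRP6 and is a feedback target of the pathway. Its promoter is shown because it was the only member promoter with a match to the TCF/LEF letters searched.

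DKK1 promoter, chr10:52314031-52314280: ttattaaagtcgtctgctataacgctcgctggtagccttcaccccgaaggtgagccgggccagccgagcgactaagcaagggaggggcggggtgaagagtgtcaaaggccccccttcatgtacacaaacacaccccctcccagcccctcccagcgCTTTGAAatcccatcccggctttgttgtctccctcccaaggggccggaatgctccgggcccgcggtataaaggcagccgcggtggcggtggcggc

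The capitals mark CTTTGAA, 95 bases before the start. DKK1 lies at chr10:52314281-52318042 in the GENCODE annotation of GRCh38. It had 13.1, 13.3 and 11.6 CPM in Control, 6.59, 5.72 and 5.88 in LV-MEIS1, 2.54, 2.69 and 2.67 in HOXB13ko, and 2.51, 1.81 and 1.99 in HOXB13ko-LV-MEIS1. The values formed 3 steps with no overlap, Control, LV-MEIS1 and the knockout label, and within that label HOXB13ko lay just above HOXB13ko-LV-MEIS1. DKK1 fell 4.19-fold in HOXB13ko against Control (−2.07 ± 0.12, treat adjusted p = 1.67e-06), the largest change of any member in any of the 5 comparisons, and was 2.53-fold lower in HOXB13ko-LV-MEIS1 than in LV-MEIS1 (−1.34 ± 0.12, treat adjusted p = 0.00028).

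The DKK1 fall in LV-MEIS1 against Control was 2.00-fold (−1.0 ± 0.12, treat adjusted p = 0.0482, eBayes adjusted p = 1.32e-05). The size held under other settings but the treat call did not. It was lost with a pseudocount of 1 (0.058), with CPM rescaled to equal sums (0.0657), with a replicate block (0.0646) and without 10 of the 12 libraries in turn (0.0552 to 0.198); only HOXB13ko-LV-MEIS1 1 and 2 could be left out with the call kept. The difference between the MEIS1 effects was −0.72 ± 0.17 (eBayes adjusted p = 0.00532, treat adjusted p = 1).

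KREMEN1 and KREMEN2 encode membrane receptors that, with DKK1, take LRP6 off the surface. KREMEN1 had 14.3, 14.1 and 13.6 CPM in Control, 27.6, 26.5 and 26.2 in LV-MEIS1, 11.8, 10.7 and 10.7 in HOXB13ko, and 10.6, 10.9 and 12.5 in HOXB13ko-LV-MEIS1. LV-MEIS1 lay far above the rest and the knockout label slightly below Control. The rise against Control was 1.88-fold (0.91 ± 0.08, treat adjusted p = 0.0173), a call lost without Control 3 (0.0771), LV-MEIS1 1 (0.0799) or LV-MEIS1 2 (0.0515), and the level in HOXB13ko-LV-MEIS1 was 2.32-fold below LV-MEIS1 (−1.21 ± 0.08, treat adjusted p = 3.51e-05). The difference between the MEIS1 effects was 0.88 ± 0.11 (eBayes adjusted p = 5.43e-05, treat adjusted p = 0.238).

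KREMEN2 took another course from its paralog, with 25.4, 33.0 and 30.0 CPM in Control, 23.0, 19.3 and 24.6 in LV-MEIS1, 16.2, 18.8 and 15.1 in HOXB13ko, and 16.5, 13.7 and 16.6 in HOXB13ko-LV-MEIS1. All 6 libraries with the knockout label were below the 6 without it. It fell in HOXB13ko against Control (−0.80 ± 0.12, eBayes adjusted p = 0.000184, treat adjusted p = 1) and in LV-MEIS1 against Control (−0.39 ± 0.12, eBayes adjusted p = 0.0144), the latter lost without Control 2 (0.0686) or LV-MEIS1 2 (0.0754). Exons of KREMEN2 overlap those of the opposite-strand gene PKMYT1, a kinase of the cell cycle, which averaged 108, 79.0, 72.6 and 71.6 CPM in the 4 groups and so followed the same order; its share in the KREMEN2 values was not tested.

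In the cytoplasm, changes were small. The 3 Dishevelled genes all fell in HOXB13ko against Control, DVL1 by 0.31, DVL2 by 0.23 and DVL3 by 0.20 on the log2 scale (eBayes adjusted p = 0.0128, 0.0379 and 0.00699). DVL1 lost this without Control 2 or HOXB13ko 3 (0.0643 and 0.0616), and DVL2 without Control 2 or 3 or HOXB13ko 2 or 3 (0.0525 to 0.173), while DVL3 kept it in each such fit. DVL1 also fell in LV-MEIS1 against Control (−0.35 ± 0.08, eBayes adjusted p = 0.00387). Its difference between the MEIS1 effects was −0.38 ± 0.12 (eBayes adjusted p = 0.0233), lost without Control 2, LV-MEIS1 2, HOXB13ko 2 or 3, or HOXB13ko-LV-MEIS1 3 (0.0516 to 0.0618). NKD2, which binds Dishevelled and inhibits it, had group means from 3.96 to 5.48 CPM and fell by 0.43 in LV-MEIS1 against Control (eBayes adjusted p = 0.0144). That was lost without Control 3 or LV-MEIS1 1 (0.0566 and 0.0575). Its fall in HOXB13ko against Control (−0.35 ± 0.13, eBayes adjusted p = 0.0473) was lost in 9 of 12 such fits (0.0543 to 0.197), all but those without LV-MEIS1 1, LV-MEIS1 3 or HOXB13ko 1.

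AXIN2, the destruction complex scaffold that serves as a common readout of β-catenin activity, had 4.48, 4.80 and 4.16 CPM in Control, 5.76, 6.75 and 5.77 in LV-MEIS1, 2.71, 2.72 and 3.85 in HOXB13ko, and 3.38, 3.49 and 3.31 in HOXB13ko-LV-MEIS1. LV-MEIS1 was highest, Control followed and the knockout label was lowest, with no overlap between those 3 sets. AXIN2 rose in LV-MEIS1 against Control (0.40 ± 0.13, eBayes adjusted p = 0.0241) and fell in HOXB13ko against Control (−0.48 ± 0.13, eBayes adjusted p = 0.0137). The first was lost without Control 3 (0.0801) or LV-MEIS1 2 (0.102), the second without Control 2 (0.057) or HOXB13ko 2 (0.0607). HOXB13ko-LV-MEIS1 was 1.69-fold below LV-MEIS1 (−0.76 ± 0.13, eBayes adjusted p = 0.000297, treat adjusted p = 0.999), and this held in every fit without 1 library. The difference between the MEIS1 effects on AXIN2 was 0.27 ± 0.19 (eBayes adjusted p = 0.282).

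The rest of the destruction complex varied within narrow bounds. GSK3B, a kinase that phosphorylates β-catenin, rose in LV-MEIS1 (0.18 ± 0.06, eBayes adjusted p = 0.0362) and in HOXB13ko (0.23 ± 0.06, eBayes adjusted p = 0.0165) against Control, while GSK3A fell in HOXB13ko by 0.24 (SE 0.07, eBayes adjusted p = 0.0157). All 3 were lost without Control 2. The GSK3B results were lost without Control 3 as well, the first also without LV-MEIS1 2 and the second without HOXB13ko 3, and GSK3A without HOXB13ko 3 (0.0628 to 0.19 over all these fits). APC, AXIN1 and CSNK1A1 passed no test in any of the 5 comparisons, with group means of 51.6 to 56.5, 51.4 to 59.0 and 329 to 357 CPM.

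CTNNB1 itself measured 300.4, 296 and 279 CPM in Control, 330.3, 318 and 314 in LV-MEIS1, 305, 298 and 283 in HOXB13ko, and 319, 299 and 323 in HOXB13ko-LV-MEIS1. LV-MEIS1 lay above Control and HOXB13ko, and HOXB13ko-LV-MEIS1 overlapped with all the others. The rise in LV-MEIS1 was 1.10-fold (0.14 ± 0.05, eBayes adjusted p = 0.0342) and was lost without Control 3 (0.137), LV-MEIS1 1 (0.107) or LV-MEIS1 2 (0.0671). Since β-catenin is regulated mainly through the stability of the protein, its mRNA does not measure pathway activity. Of its nuclear partners, the adaptor BCL9 rose by 0.19 ± 0.05 (eBayes adjusted p = 0.00915) and the coactivator PYGO2 by 0.29 ± 0.06 (eBayes adjusted p = 0.00236) in LV-MEIS1 against Control, and CTNNBIP1, an inhibitor of the β-catenin and TCF contact, passed no test.

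The 4 TCF/LEF genes, whose products hold β-catenin on DNA, differed in their patterns. LEF1 had 23.3, 22.8 and 23.3 CPM in Control, 21.5, 21.8 and 22.1 in LV-MEIS1, 10.4, 8.44 and 9.45 in HOXB13ko, and 9.41, 9.78 and 11.4 in HOXB13ko-LV-MEIS1. All libraries with the knockout label had less than 12 CPM and all others more than 21. LEF1 fell 2.39-fold in HOXB13ko against Control (−1.26 ± 0.09, treat adjusted p = 0.000241) and was 2.09-fold lower in HOXB13ko-LV-MEIS1 than in LV-MEIS1 (−1.06 ± 0.09, treat adjusted p = 0.00112). The MEIS1 estimates were −0.09 ± 0.09 in LV-MEIS1 against Control and 0.11 ± 0.09 under the knockout label. Its overlapping antisense gene LEF1-AS1 averaged only 1.19 to 1.97 CPM in the 4 groups.

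TCF7 and TCF7L2 were instead high in LV-MEIS1 alone. Under the knockout label their MEIS1 estimates were 0.003 and 0.03. TCF7L2 had 13.0, 12.6 and 11.6 CPM in Control, 18.2, 18.1 and 17.1 in LV-MEIS1, 9.73, 13.1 and 10.2 in HOXB13ko, and 11.7, 12.2 and 9.85 in HOXB13ko-LV-MEIS1. TCF7 had 4.28, 4.65 and 3.86 CPM in Control, 7.74, 5.75 and 6.96 in LV-MEIS1, 4.34, 3.65 and 3.35 in HOXB13ko, and 3.27, 4.71 and 3.47 in HOXB13ko-LV-MEIS1. For both genes the 3 LV-MEIS1 libraries were above the 9 others, which overlapped. Both rose against Control, TCF7L2 by 0.51 ± 0.11 (eBayes adjusted p = 0.002) and TCF7 by 0.61 ± 0.15 (eBayes adjusted p = 0.0044), with treat adjusted p = 1 for each. Their differences between the MEIS1 effects were 0.47 ± 0.16 and 0.61 ± 0.21 (eBayes adjusted p = 0.0311 and 0.0391). The first was lost without any 1 of 5 libraries (Control 3, LV-MEIS1 1 or 2, HOXB13ko 2 and HOXB13ko-LV-MEIS1 3; 0.0572 to 0.08). The second was lost without any 1 of 8 (Control 1 or 3, LV-MEIS1 1 or 3, HOXB13ko 1 or 2, HOXB13ko-LV-MEIS1 1 or 3; 0.0542 to 0.0898). Quantile scaling also ended both (0.0588 for TCF7L2 and 0.0919 for TCF7). TCF7 shares exon sequence with the opposite-strand gene SKP1, a ubiquitin ligase subunit. SKP1 averaged 200 CPM in Control, 250 in LV-MEIS1, 205 in HOXB13ko and 218 in HOXB13ko-LV-MEIS1, so it too was highest in LV-MEIS1. Its share in the TCF7 values was not tested. TCF7L1, mostly a repressor, fell in HOXB13ko against Control (−0.36 ± 0.11, eBayes adjusted p = 0.0205), which was lost without Control 2 or 3 or HOXB13ko 2 or 3 (0.0606 to 0.0833).

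Groucho proteins close the pathway at its targets. TLE1 had 2.48, 2.79 and 3.21 CPM in Control, 1.72, 1.55 and 1.55 in LV-MEIS1, 5.40, 5.24 and 5.15 in HOXB13ko, and 6.40, 4.52 and 5.41 in HOXB13ko-LV-MEIS1. Its order was the reverse of that of AXIN2, lowest in LV-MEIS1, then Control, then the knockout label, without overlap between the 3. TLE1 was 2.80-fold higher in HOXB13ko-LV-MEIS1 than in LV-MEIS1 (1.49 ± 0.14, treat adjusted p = 0.000165), while its fall in LV-MEIS1 (−0.66 ± 0.14) and its rise in HOXB13ko (0.80 ± 0.14) against Control passed eBayes alone (adjusted p = 0.0014 and 0.00062). TLE3, far more abundant, went the other way: it averaged 169 CPM in Control, 238 in LV-MEIS1, 151 in HOXB13ko and 159 in HOXB13ko-LV-MEIS1, and rose in LV-MEIS1 by 0.50 ± 0.06 (eBayes adjusted p = 8.23e-06).

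**Figure D4:**
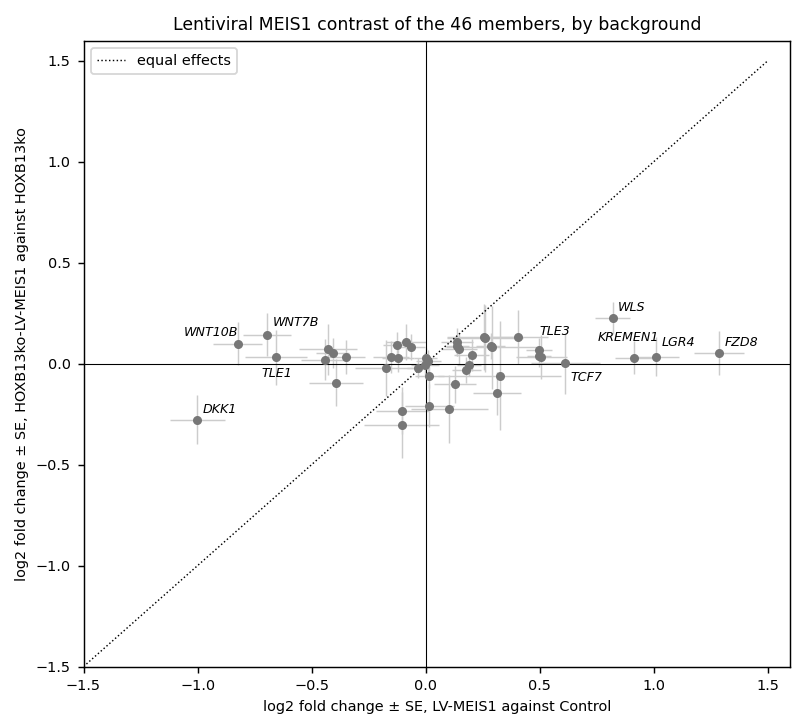
Log2 fold change ± SE of each of the 46 members in LV-MEIS1 against Control (horizontal) and in HOXB13ko-LV-MEIS1 against HOXB13ko (vertical), with a dotted line for equal effects. The horizontal values run from −1.0 (DKK1) to 1.29 (FZD8), and the vertical ones from −0.30 to 0.23.

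Promoters were compared by letters alone. A window from 250 bases before to 50 after the start was at hand for 34 of the 46 members and for 10646 listed genes, in the RefSeq table of GRCh38.p14. TGACAG, the core bound by MEIS proteins, was found on either strand in 6 of the 34 (17.6%) and in 13.2% of all windows, namely in BCL9, CSNK1A1, GSK3A, ROR1, TCF7L2 and WNT3. CAATAAA, a form of the HOXB13 site, was in none of the 34 and in 2.16% of all windows. CTTTGAT or CTTTGAA, forms of the TCF/LEF site, were in DKK1 alone, 2.94% of the members, and in 3.93% of all windows. A match is a description of the sequence, and its absence says only that those letters are not in that window.

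Beyond the members, 111 other genes of the pathway were listed by role, of which 79 had values: further antagonists, cytoplasmic components, the polarity branch and target genes. In LV-MEIS1 against Control 9 were called, 4 higher (1.75% of all genes were) and 5 lower (2.24% of all genes). CXXC4 and DACT3, both inhibitors that act on Dishevelled, PTK7, a co-receptor of the polarity branch, and NFATC1, a calcium-dependent transcription factor, rose. The secreted antagonists SOSTDC1 and NOTUM, the polarity cadherin CELSR3, the hyaluronan receptor CD44 and the receptor kinase EPHB3 fell. In HOXB13ko against Control none was called by treat and 36 passed eBayes, 22 higher beside 16.5% of all genes and 14 lower beside 16.4%, and in HOXB13ko-LV-MEIS1 against HOXB13ko none passed either test. HOXB13ko-LV-MEIS1 against LV-MEIS1 had 6 calls, with SOSTDC1, NOTUM, CD44 and EPHB3 higher (beside 3.29% of all genes) and DACT3 and NFATC1 lower (beside 3.42%).

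NOTUM, a secreted enzyme that removes the lipid of Wnt, changed most. It had 28.7, 37.9 and 30.6 CPM in Control, 4.87, 5.02 and 5.55 in LV-MEIS1, 24.6, 22.6 and 19.8 in HOXB13ko, and 22.7, 22.4 and 22.1 in HOXB13ko-LV-MEIS1. LV-MEIS1 lay far below all others (−2.53 ± 0.10 against Control, treat adjusted p = 3.21e-09), whereas the MEIS1 change under the knockout label was 0.01 ± 0.10. SOSTDC1, an antagonist of BMP and Wnt, had 19.2, 16.4 and 16.3 CPM in Control, 6.86, 6.05 and 6.51 in LV-MEIS1, 30.7, 27.6 and 26.6 in HOXB13ko, and 26.5, 29.9 and 30.5 in HOXB13ko-LV-MEIS1. It fell in LV-MEIS1 (−1.35 ± 0.09, treat adjusted p = 2.12e-05).

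CD44 fell from a mean of 43.1 CPM in Control to 22.5 in LV-MEIS1 (−0.93 ± 0.05, treat adjusted p = 0.000408), EPHB3 from 23.5 to 11.5 CPM (−1.0 ± 0.09, treat adjusted p = 0.00435) and CELSR3 from 42.5 to 19.3 CPM (−1.12 ± 0.08, treat adjusted p = 0.000276). CELSR3 was not low in LV-MEIS1 alone. It also fell in HOXB13ko against Control (−0.83, eBayes adjusted p = 4.33e-06), without a treat call. HOXB13ko-LV-MEIS1 lay near LV-MEIS1 for CELSR3, with log2 fold changes of 0.01 to 0.13 when 1 library was left out. NFATC1 rose from 2.33 to 7.14 CPM (1.44 ± 0.15, treat adjusted p = 0.000887). The calls of CXXC4 (1.07 ± 0.13, treat adjusted p = 0.0313), DACT3 (1.11 ± 0.15, 0.0443) and PTK7 (0.91 ± 0.09, 0.0272) depended on single libraries. CXXC4 and PTK7 were each lost without Control 1, Control 3 or any LV-MEIS1 library (up to 0.142 and 0.127), and DACT3 in every fit without 1 library except those without HOXB13ko 2 or 3 (up to 0.163). CCND1, the cyclin D1 gene often cited as a target, was at 3048 CPM in Control and 3226 CPM in LV-MEIS1 and passed no test in any comparison. Its 3 LV-MEIS1 libraries did lie above the 9 others, as they did for 15.1% of all genes. Other genes of this list did pass eBayes. In LV-MEIS1 against Control 26 of the 79 rose and 21 fell by eBayes, beside 23.2% and 21.3% of all genes. MYC, EPHB2 and SOX4 were among those that fell, and JUN and PPARD among those that rose.

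**Figure D5:**
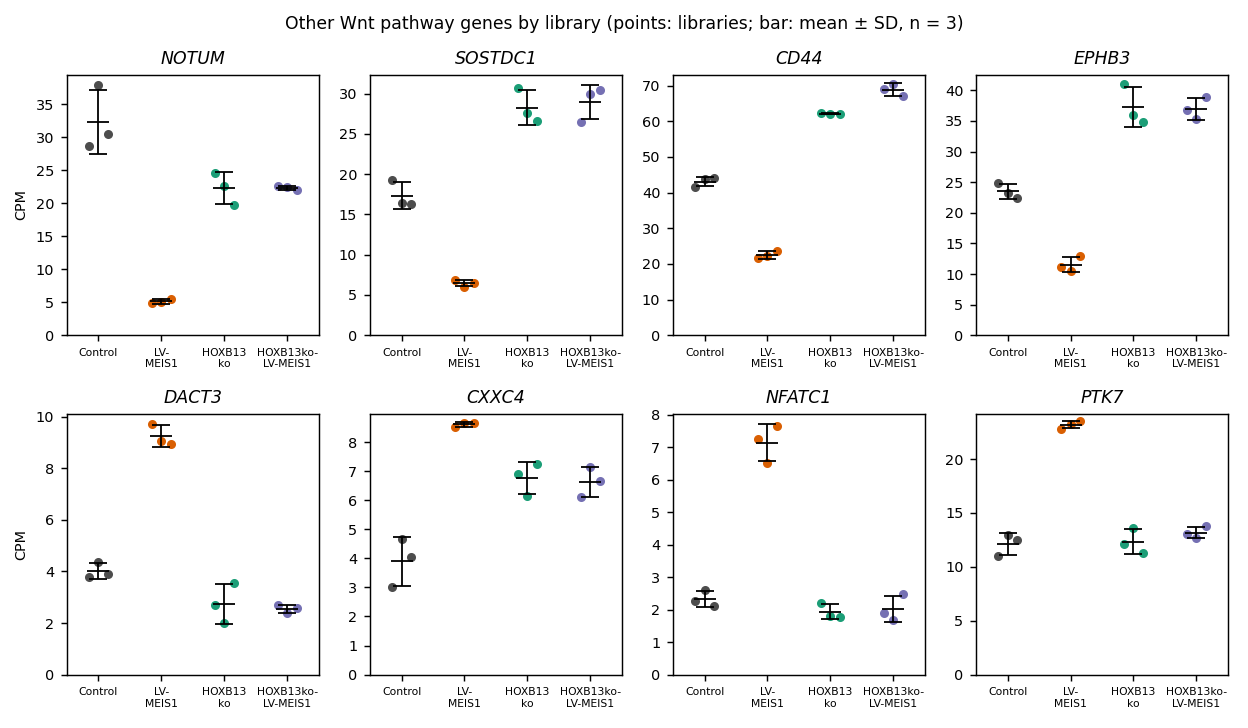
CPM in each of the 12 libraries (linear axis from 0) for 8 of the other pathway genes called in any comparison. CELSR3, also called, is not shown. Points are libraries, bars the mean ± SD (n = 3). NOTUM, SOSTDC1, CD44 and EPHB3 are lowest in LV-MEIS1 and DACT3, CXXC4, NFATC1 and PTK7 highest there, while HOXB13ko and HOXB13ko-LV-MEIS1 lie close together in every panel.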

How the data were processed

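Stranded RNA-seq libraries (50 bp single-end reads, 9 PCR cycles, 3 per group) were processed by the authors, who trimmed reads with Trimmomatic 0.38, quantified Ensembl transcripts of GRCh38.p12 with kallisto 0.43.1 without using strand, summed them per gene with tximport, removed low genes and deposited CPM from edgeR 3.22.2. From these CPM values, log2(CPM + 0.5) was fitted with limma 3.58.1 (R 4.3.3), 1 mean per group over 12 libraries and 8 residual degrees of freedom, with a trended prior, for 5 contrasts. Of 13993 rows, 42 repeated a symbol and were left out. The treat test against 1.5-fold with Benjamini-Hochberg adjusted p under 0.05 over 13951 genes gave the calls, and eBayes against no change is given beside it. Low values were whole multiples of 1 read (tolerance 0.05) in only 41.2 to 55.4% of cases, so reads were not recovered, no count model was run and depth is an estimate. The script was tested on simulated data. Every library's value is given for members called in any contrast. The same holds for those with an eBayes adjusted p under 0.05 and a change of at least 1.5-fold in a pairwise contrast. It holds too for CTNNB1, AXIN2, TCF7L2, LEF1 and RNF43. Of the other pathway genes, those called are named, with CCND1, MYC, EPHB2, SOX4, JUN and PPARD. The members, lists and tests were chosen with earlier results of these data known. Exon overlaps and lengths came from GENCODE v44 (GRCh38), promoter sequences from RefSeq, and figures were drawn with matplotlib 3.10.9. Alternatives were other pseudocounts, a minimum mean of 1 CPM, 3 scalings, a replicate block, only the groups compared, and each library left out.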

Additional observations from a re-analysis of the deposited data

Results flagged for a closer look

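For 5 genes of the pathway the change in LV-MEIS1 against Control differed from that in HOXB13ko-LV-MEIS1 against HOXB13ko, by limma treat on the difference. Beside that, 1.31% of all genes had a called positive and 1.62% a called negative difference. The member FZD8 had a difference of 1.23 on the log2 scale (treat adjusted p = 0.0199), rising with MEIS1 in 3 of 3 LV-MEIS1 libraries against all Control libraries while the groups with the knockout label overlapped. Among the other pathway genes, the difference was −2.54 for NOTUM (3.62e-07), −1.39 for SOSTDC1 (0.000727), −1.07 for CD44 (0.000574) and 1.39 for NFATC1 (0.0282). The FZD8 call was lost without any 1 of 6 libraries (0.0524 to 0.0663), and that of NFATC1 without any 1 of 7 (Control 1 or 3, LV-MEIS1 1 or 3, HOXB13ko 1, HOXB13ko-LV-MEIS1 1 or 2; 0.058 to 0.0888), with a replicate block (0.0543) and with quantile scaling (0.113). MEIS1 mRNA was lower in HOXB13ko-LV-MEIS1 than in LV-MEIS1, and neither this nor the derivation of the lines can be told apart from the HOXB13 label.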

How the results depend on the processing

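The counts of members called were 4 for LV-MEIS1 and 3 for HOXB13ko, each compared with Control, 0 for MEIS1 added under the knockout label, 6 between the MEIS1 groups and 1 for the difference of the MEIS1 effects. By eBayes against no change they were, in that order, 24, 23, 0, 28 and 17, and by eBayes with a 1.5-fold limit applied afterwards 9, 8, 0, 15 and 9, beside 1636, 806, 5, 2239 and 1858 of all 13951 genes under that limit. Leaving out 1 library at a time gave 2 to 4, 3 to 3, 0 to 0, 5 to 7 and 0 to 1. No value of a named gene that passed either test changed sign under any setting. Rescaling moved the median of all genes by at most 0.0386 on the log2 scale. Leaving out 1 library moved the median log2 fold change of the members to between 0.004 and 0.09 in LV-MEIS1 against Control (0.004 without LV-MEIS1 2), to between −0.11 and −0.04 in HOXB13ko against Control (−0.04 without Control 2), and to between −0.13 and −0.05 between the MEIS1 groups (−0.05 without LV-MEIS1 3). For single members, the treat call of DKK1 in LV-MEIS1 against Control was lost under 3 settings besides the libraries left out, and LGR4 and WLS gained a call in HOXB13ko-LV-MEIS1 against LV-MEIS1 with a pseudocount of 0.1 (0.0431 and 0.0382) and with equal sums (0.0321 and 0.0212). In LV-MEIS1 against Control, quantile scaling ended the calls of DACT3 (0.0765) and PTK7 (0.0519), a pseudocount of 1 those of DACT3 (0.0582) and CXXC4 (0.0599), and fitting only the groups compared that of CXXC4 (0.0819); the cause was not tested. Whether replicate numbers pair the libraries is not stated in the labels. Deviations of same-numbered libraries correlated from −0.209 to 0.146 and 2 of 18 pairs exceeded 0.1, which cannot decide the design. With the number as a replicate block the counts of members called were 3, 3, 0, 6 and 1, the loss being DKK1. Among the other named genes, DACT3 in LV-MEIS1 against Control (0.066) and NFATC1 in the difference (0.0543) were lost. The block also ended the eBayes calls of FZD4 (0.0524) and GSK3B (0.0636) in LV-MEIS1 against Control, of WLS (0.0562), RNF43 (0.0779), DVL2 (0.0633) and NKD2 (0.0761) in HOXB13ko against Control, and of NKD2 (0.0745) and TCF7 (0.0557) in the difference. None of the 12 libraries correlated best with their own number, a hint from the data and not the design. Genes near 1 CPM, such as ROR1, LGR5 and WNT3, rest on few reads, and depth limits what could be seen there.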
